A study of Mus musculus with 4 samples.

Results

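The replication-dependent histone genes of the mouse are described here across the cells of the cerebellar subdural meninges. They were chosen by symbol alone, as every feature whose name begins with Hist1h, Hist2h or Hist4h, and numbered 65 of the 32285 features counted. They comprise 6 genes for the linker histone H1, 17 for H2A, 17 for H2B, 12 for H3 and 13 for H4. In the GENCODE M21 annotation (GRCm38, the assembly also called mm10) 54 of them lie on chromosome 13 between positions 21715763 and 23934851, 10 lie on chromosome 3 between 96219865 and 96270132, and Hist4h4 lies alone on chromosome 6 between 136801553 and 136804415. All but 4 of the genes (61 of 65) have 1 exon in the annotated transcript used here.

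The 4 libraries were prepared with a droplet method for single cells, in which an oligo-dT primer captures a transcript at its 3' end and each captured molecule gives 1 UMI (unique molecular identifier). The NdpWT and NdpKO groups held 2 libraries each, from mice wild type for Ndp or lacking it. The product of Ndp is norrin, a secreted protein that acts on endothelial cells through Fzd4. All mice, controls included, carried the Neurod2-SmoA1 transgene on 1 allele, which places an activated Smoothened under the promoter of a granule neuron gene, on a C57/BL6 background. Each library was a pool of 5 cerebella from a collection of 3 litters, aged 6 to 8 days in the sample fields and 7 to 9 days in the protocol. The animals of a pool cannot be separated, and p-values measure the spread between pools. Where 4 values follow a gene or class, they are in the order NdpWT replicate 1, NdpWT replicate 2, NdpKO replicate 1, NdpKO replicate 2. Subdural meninges were peeled from the cerebellum, and 18568 of the 37981 kept cells were of the granule neuron lineage or in clusters led by cell cycle genes.

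During DNA replication a cell must package its new DNA, and the core histones (H2A, H2B, H3 and H4) and linker H1 are made from many gene copies that are transcribed together in S phase. Their mRNAs are unusual in that most carry no poly(A) tail: the transcript is cut just after a short stem-loop, which is bound by the stem-loop binding protein Slbp. When replication stops, these mRNAs are degraded, while replication-independent variants are made from separate, polyadenylated genes throughout the cycle. Granule neuron precursors divide in the first weeks after birth, and Hedgehog signalling through Smoothened drives their division.

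The stem-loops are shown because a transcript cut after one has no poly(A) tail for an oligo-dT primer to hold. The search asked for a perfectly paired stem of 6 bases around a loop of 4 bases beginning TT. The stem had to begin GG and to have only C or T next to the loop. This pattern was found past the stop codon of 42 of 65 annotated transcripts, and a stem-loop of another form would be missed. There were 6 forms, and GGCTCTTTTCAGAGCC was the most frequent, in 24 genes. Below, the stem-loop is in capitals with up to 5 bases before it and 9 after it, 5' to 3', from the GENCODE M21 transcripts.
Hist1h1e: ccaaaGGCTCTTTTCAGAGCCacccacaac
Hist1h1c: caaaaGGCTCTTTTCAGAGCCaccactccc
Hist1h2ae: acaaaGGCTCTTTTCAGAGCCattcactta
Hist1h2ap: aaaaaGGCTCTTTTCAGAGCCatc
Hist1h3c: aaaaaGGCTCTTTTAAGAGCCacctaagat
Hist2h2ac: aaaaaGGCTCTTTTTAGAGCCaccaaatct
Hist1h4d: ccaaaGGCCCTTTTCAGGGCCactaccttc
Hist4h4: acaaaGGCCCTTTTCAGGGCCcacaaagca
Hist2h4: ctaacGGCCCTTTTTAGGGCCaaccacagt
Hist1h4b: caaaaGGTCCTTTTCAGGACCactcactga
The 7 genes with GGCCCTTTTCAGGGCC include Hist1h4d, Hist1h4h and Hist4h4, all H4 genes. The form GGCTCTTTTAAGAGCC occurred in 6 genes, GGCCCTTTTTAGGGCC in 2, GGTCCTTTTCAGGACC in 2 and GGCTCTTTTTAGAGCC in 1.

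The transcripts differed in what the annotation places after the stem-loop. For a gene with several annotated transcripts, the one that ran furthest past a stem-loop was used, or else the longest. In 22 genes the transcript ended 3 to 74 bases past it, as in Hist1h2ap, and these genes held 21.2% of all histone UMIs. In 20 genes it ran on for 151 to 4884 bases, as in Hist1h1e, Hist1h4d and Hist1h1c, and 7 of those 20 had the polyadenylation hexamer AATAAA in their last 50 bases; these genes held 41.1% of the UMIs. Another 15 transcripts were annotated only to the stop codon, so that their ends could not be examined, and held 31.1% of the UMIs, mostly through Hist1h1b. In the remaining 8, which include Hist1h2bc, Hist1h1a and Hist2h2be, no stem-loop was found, and they held 6.66% of the UMIs. The median level was 11.3 CPM (a gene's UMIs scaled to the same library total) in genes that ran over 100 bases past the stem-loop and 6.09 in genes that ended within 100 bases of it, with ranges that overlapped (0.201 to 304 and 0.00520 to 146).

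Promoters are shown for short sequences that recur among these genes, and none was tested against a difference in level. A 300-base window, from 250 bases before the start to 50 after it, was taken from RefSeq (GRCm38.p6) and could be matched for 58 of 65 genes through RefSeq synonyms. CCAAT on either strand was in 49 of 58 windows (84.5%), against 37.8% of the 26965 other promoters. Every matched H1, H2A, H2B and H3 window held it, and 3 of 12 H4 windows did. TATAAA was in 33 windows (56.9%, against 14.1%). The octamer ATTTGCAT was in 12 (20.7%, against 1.71%), namely 6 of 16 H2A and 6 of 15 H2B windows. AAACACA, an element known from H1 promoters, was in 8 (13.8%, against 7.12%), among them 4 of 5 H1 windows. AAACACA can overlap the end of TATAAA, and a match is only a match of letters. The window of Hist1h1b (RefSeq H1f5; chr13:21780576-21780875, minus strand) held CCAAT on both strands, AAACACA and TATAAA, in capitals.
Hist1h1b: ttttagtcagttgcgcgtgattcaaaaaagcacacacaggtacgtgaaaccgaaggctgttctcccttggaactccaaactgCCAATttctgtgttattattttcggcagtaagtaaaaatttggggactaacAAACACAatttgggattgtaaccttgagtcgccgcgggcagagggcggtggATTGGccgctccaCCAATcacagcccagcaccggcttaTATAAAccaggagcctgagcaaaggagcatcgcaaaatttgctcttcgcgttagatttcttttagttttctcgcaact
Hist1h2bg (RefSeq H2bc8; chr13:23571150-23571449, plus strand) is transcribed away from Hist1h2ae, whose own window (chr13:23571171-23571470, minus strand) overlaps it. This window held CCAAT on both strands, the octamer and TATAAA.
Hist1h2bg: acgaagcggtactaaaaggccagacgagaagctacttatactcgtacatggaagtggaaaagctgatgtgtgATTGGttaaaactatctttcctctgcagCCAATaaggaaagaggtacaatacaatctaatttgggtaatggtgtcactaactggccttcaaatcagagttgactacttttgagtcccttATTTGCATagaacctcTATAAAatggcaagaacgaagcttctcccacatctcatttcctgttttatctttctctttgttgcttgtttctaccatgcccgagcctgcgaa

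The libraries, as deposited, held 114363848 to 125981161 UMIs in 12904 to 19134 barcodes, and 5605 to 12547 cells per library were kept, with median depths of 7224 to 14290 UMIs. NdpKO replicate 1 stood apart: 44.1% of its barcodes passed the filters, against 64.8% to 67.0% in the others, and its kept cells were the deepest. Any pair of libraries shared 48 to 98 barcodes, at most 0.594% of the smaller. Ndp had 2.06, 1.36, 0.411 and 0.467 CPM, lower in both knockout libraries and not at 0.

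The first question was which copies the 3' tags captured. In the kept cells 1001941 UMIs fell on the 65 genes, or 2713, 2419, 2119 and 2673 CPM. More than 3 UMIs were found in every library for 61 genes, and no gene was at 0 in all libraries. The 4 others were Hist1h2ba, with 1 and 12 UMIs in NdpWT replicate 1 and NdpKO replicate 2, Hist1h2aa, with 12 UMIs in NdpKO replicate 2, Hist2h2aa2, with 1 UMI in each replicate 1, and Hist1h2bq, with 1 UMI in NdpWT replicate 2. Hist1h2aa and Hist1h2ba are known as testis-specific copies. The H1 genes held 46.5% of the UMIs, H2A 19.2%, H4 16.7%, H2B 9.09% and H3 8.52%, although H1 has the fewest copies and nucleosomes hold more core than linker histone. A UMI count does not grow with transcript length, but the share of molecules an oligo-dT primer catches is not known for any of these genes, so the order is one of captured tags.

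**Figure D1:**
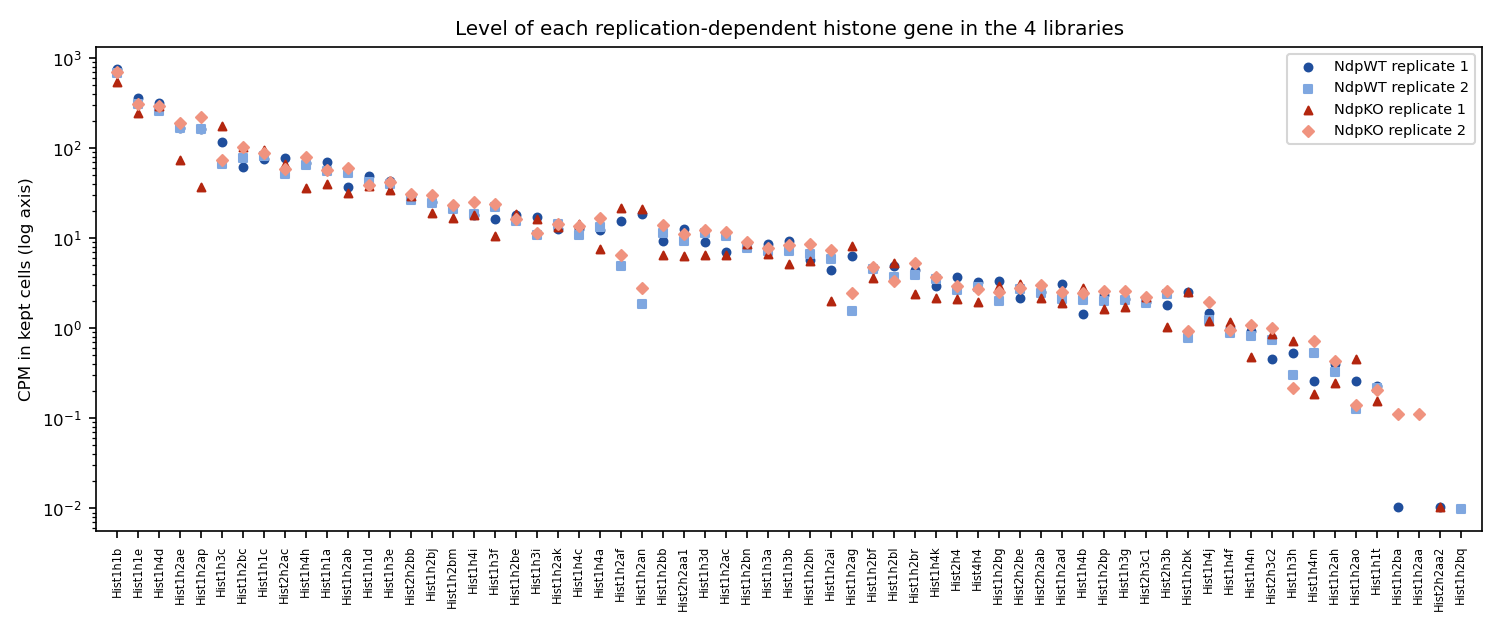
Level of each of the 65 genes in the kept cells, as CPM on a log axis, ranked by the mean over libraries, with 1 marker per library (values of 0 are not drawn). Hist1h1b is highest in all 4 libraries, and Hist1h2an, Hist1h2af and Hist1h2ag are higher in both libraries numbered 1.

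Among linker histones Hist1h1b (H1.5) was captured most, with 753, 679, 539 and 699 CPM. Hist1h1e (H1.4) had 358, 308, 243 and 308 CPM, but its last 400 bases are shared over their whole length with Hist1h2be and Gm11398, so its tags are uncertain. Hist1h1c (H1.2) had 75.4, 81.8, 94.9 and 88.1 CPM. Hist1h1a (H1.1) had 70.4, 56.0, 39.9 and 56.4 CPM. Of the core histones the H4 gene Hist1h4d was captured most, with 319, 260, 292 and 296 CPM, and no 90-base window of its end recurs in another gene. Another H4 gene, Hist1h4h, had 35.7 to 80.5 CPM, lowest in NdpKO replicate 1. The H2B gene Hist1h2bc had 61.8, 76.9, 103 and 102 CPM. Levels over all cells depend on the mix of cell classes. Fibroblasts, which held Hist1h2bc most, were 1117 of 9107, 2161 of 12547, 1209 of 5605 and 1935 of 10722 kept cells. The 12 most captured genes, those of this and of the next paragraph, held 83.2% of the histone UMIs.

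Among the H2A copies Hist1h2ae had 168, 165, 74.5 and 189 CPM and Hist1h2ap 162, 164, 36.8 and 220. Both were lowest in NdpKO replicate 1, beyond the spread of the other 3 libraries. Hist2h2ac, from the small cluster on chromosome 3, had 76.6, 52.0, 66.5 and 57.9 CPM, and Hist1h2ab had 36.7, 52.4, 31.4 and 59.3. The H3 gene Hist1h3c had 118, 66.1, 176 and 72.8 CPM, higher in both libraries numbered 1. Copies of H2A and H3 are near-identical: 90-base windows of the last 400 bases of Hist1h2ap recur over their whole length in other genes, H2A copies among them, those of Hist1h2ae in 37.0% and those of Hist1h3c in 35.0%. In all, 46 of 65 genes shared a window with another gene, and tags of those copies can be split or moved between them.

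The second question was in which cells the genes were found. Cells were clustered without these genes, and a class was named by markers of its cell type; clusters that took no such name and were led by S and G2/M genes formed the class of cycling cells. Cycling cells held 11909, 9107, 10561 and 10100 summed histone CPM. No other tested class exceeded 2557 CPM in any library; with the stricter cell filter erythroid cells had 2512 to 4853 and cycling cells 9597 to 12379. Macrophages had 810, 687, 495 and 564 CPM, fibroblasts 790, 731, 716 and 814, endothelial cells 861, 945, 829 and 1038, and the granule neuron lineage outside the cycling clusters 760, 918, 681 and 730. Mural cells had 1055 to 1595, other neurons 1040 to 2418, erythroid cells 1200 to 2557 and monocytes or dendritic cells 515 to 841. The ranges of the cycling class and of every other tested class did not overlap, whereas those of fibroblasts, macrophages and the granule lineage overlapped each other, and that of endothelial cells overlapped the granule lineage. The B lineage, with 8 to 39 cells per library and therefore not tested, had 3931 to 7488 CPM.

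**Figure D2:**
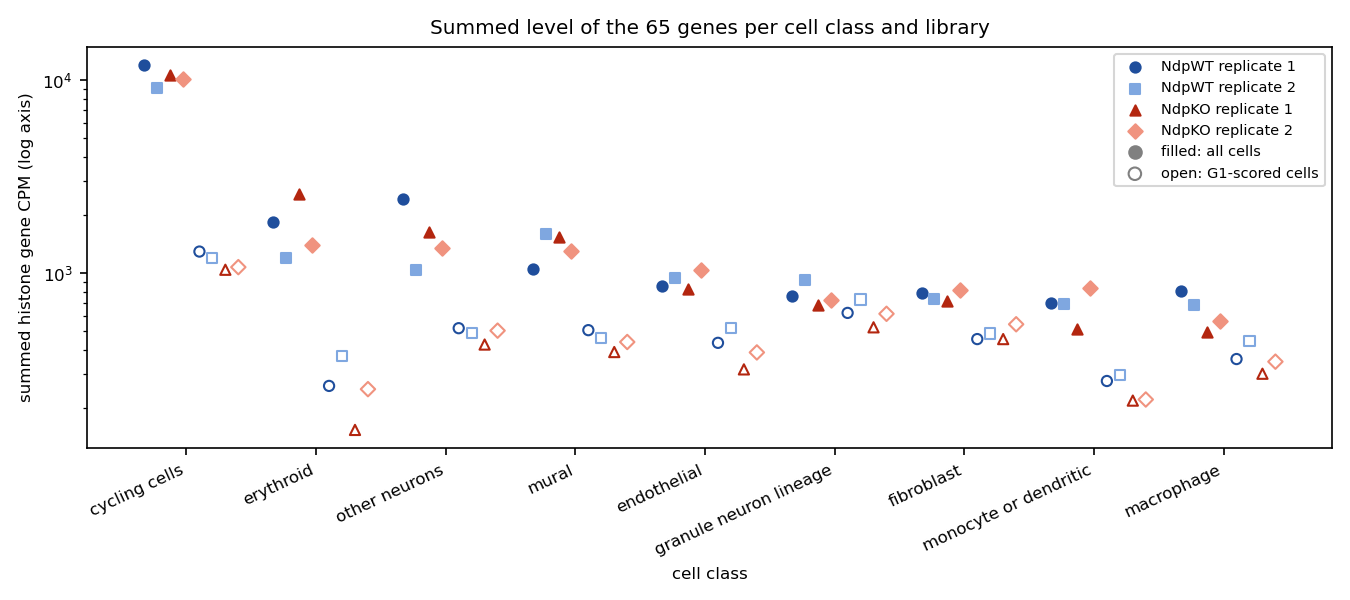
Summed CPM of the 65 genes (log axis) per cell class, 1 marker per library, for all cells of a class (filled) and for those scored as G1 (open). All 4 libraries of the cycling class lie at 9107 or above when all cells are counted and between 1040 and 1292 in G1-scored cells.

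Clusters within a class also differed. Of the cycling class, the cluster with the highest S list (5022 CPM of S genes) had 10557 to 13372 histone CPM, and the one with the highest G2/M list (14765 CPM of G2/M genes) had 10013 to 12824. A cluster of 321 cycling fibroblasts had 2841 to 5648, one of 111 cycling macrophages 2562 to 5697 and one of 395 erythroid cells 2916 to 6704. One granule lineage cluster with 5619 CPM of G2/M genes had 975 to 1708 histone CPM. When only G1-scored cells of each class were taken, a choice made after seeing the data, the mean fell to 1150 CPM in the cycling class and to 254 to 623 in the other 8.

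Free RNA from lysed cells gives UMIs in droplets of every class, and the shares of cells with a histone UMI were read beside it. After thinning every cell to 2000 UMIs, 68.9% of cycling cells held a Hist1h1b UMI (72.9% before thinning), against 10.3% of macrophages (26.7%), 7.62% of fibroblasts (28.8%) and 12.4% of endothelial cells (27.7%). The median depth before thinning was 4048 UMIs in cycling cells and 9388, 14562 and 7839 in those 3 classes, and 2457 of 7972 cycling cells were too shallow and left out. Any of the 65 genes was seen in 92.5% of thinned cycling cells, 52.2% of macrophages, 58.4% of fibroblasts and 58.5% of endothelial cells. These 3 classes also held cells scored as S (3.08% to 6.89%) or G2/M (6.26% to 10.9%), from lists of cell cycle genes. Free RNA and the cells' own transcripts cannot be told apart in their shares. The exact binomial intervals (95%) around the Hist1h1b shares were 67.7% to 70.1% in cycling cells and 9.14% to 11.5% in macrophages, for counting error only.

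Most genes had the cycling class as their highest: 57 of 61 captured genes did. Relative to macrophages the highest ratios belonged to the H2A copy Hist1h2ah (48.7-fold, at 1.73 CPM in cycling cells), the H2B copy Hist1h2bl (33.9-fold, 20.3 CPM) and the H4 copy Hist1h4f (32.7-fold, 4.24 CPM). Macrophages held 0, 1, 0 and 0 UMIs of Hist1h2ah, 9, 5, 6 and 1 of Hist1h2bl and 2, 1, 0 and 1 of Hist1h4f. These ratios and their order therefore rest on few molecules. The captured genes that were not highest in cycling cells were the H2B genes Hist1h2bc and Hist2h2be, the H3 gene Hist2h3c2 and the H4 gene Hist4h4. Hist1h2bc had 131, 159, 198 and 220 CPM in fibroblasts and 21.4, 22.6, 20.9 and 29.4 CPM in cycling cells. Every fibroblast library was above every cycling library. It was next highest in mural cells (51.9 to 104 CPM), then in macrophages (48.4 to 72.7) and endothelial cells (40.8 to 83.4), whose ranges overlap. After thinning, 25.6% of fibroblasts held a Hist1h2bc UMI and 4.71% of cycling cells did, with 4.88% of G1-scored granule lineage and cycling cells.

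Hist2h2be and Hist4h4 were low everywhere. Hist2h2be had 4.50, 6.27, 5.95 and 3.23 CPM in macrophages and 3.31, 3.95, 4.85 and 4.40 in cycling cells, ranges that overlap. Hist4h4 had 7.70, 3.99, 2.92 and 2.83 CPM in macrophages and 3.31, 3.27, 2.58 and 3.39 in cycling cells. Hist2h3c1, an H3 gene whose end is shared with Gm20634, was nearly level between cycling cells (2.74 to 4.05 CPM), macrophages (2.68 to 3.43) and fibroblasts (2.36 to 3.15). Hist2h3c2 had its highest mean in fibroblasts, at 1.26 CPM. Of these genes Hist4h4, Hist2h3c1 and Hist2h3c2 run 377 to 2445 bases past the stem-loop, and no stem-loop was found for Hist1h2bc and Hist2h2be.

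The mix of copies also differed between cells. Of the histone UMIs in S- and G2/M-scored granule lineage and cycling cells, 30.6% were Hist1h1b and 0.383% Hist1h2bc. In G1-scored fibroblasts these shares were 4.72% and 38.7%. Hist1h2bc made up 21.6% of the histone UMIs in G1-scored mural cells, 18.2% in macrophages and 15.6% in endothelial cells. Hist1h1b made up 7.14% in G1-scored endothelial cells, 10.1% in macrophages and 14.6% in erythroid cells. Hist1h1c made up 2.02% in the S- and G2/M-scored cells and 15.9% in G1-scored fibroblasts.

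The third question was how the genes vary over the cell cycle. The granule lineage and cycling cells were divided by S and G2/M scores from 28 and 30 genes, none of them a histone gene, into G1-, S- and G2/M-scored cells, which are ranges of a score and not cell types; 1619 of the 18568 cells (8.72%) lay near a limit. Of the granule lineage class 72.9% of 10596 cells were G1-scored, against 7.94% of 7972 cycling cells. Differences from G1-scored cells therefore also compare the granule lineage class with the cycling class, and these parts were not separated. G1-scored cells held 1150 summed histone CPM on average in the cycling class and 623 in the granule lineage class. UMIs were summed per library and bin and tested with edgeR, the library as a block, and 58 of the 65 genes passed the filter on low counts. In S-scored over G1-scored cells 56 of these 58 were higher and 0 lower, where 35.3% of all 13953 genes tested were higher. Their median difference was 3.05 on the log2 scale, and that of all genes was -0.02. G2/M-scored over G1-scored cells had 58 of 58 higher (34.4% of all genes), with a median of 4.21. S-scored cells were lower than G2/M-scored cells in 57 of 58 (20.5% of all genes), with a median of -1.07, and Hist1h4m, at -0.69, was not called (edgeR adjusted p = 0.0995).

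Hist1h1b had 66.0, 108, 46.7 and 56.3 CPM (here and beside every test scaled by TMM, the library scaling of edgeR) in G1-scored cells. In S-scored cells it had 1802, 1204, 1560 and 1633, and in G2/M-scored cells 3815, 2975, 3149 and 2902. No library of a bin overlapped another bin, and the log2 difference of S over G1 was 4.50 (SE 0.29, edgeR adjusted p = 8.67e-06). Hist1h4d rose from a mean of 92.8 CPM in G1 to 485 in S and 1361 in G2/M (S over G1 log2 2.36, SE 0.10, edgeR adjusted p = 2.13e-08). Hist1h2ae rose from 18.9 to 303 and 669 CPM (log2 4.01, SE 0.25, edgeR adjusted p = 5.79e-06). The H1 genes Hist1h1e and Hist1h1c, with G1 means of 179 and 35.0 CPM, rose by less than Hist1h1b, with log2 1.71 (SE 0.07) and 1.37 (SE 0.13).

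The highest differences were in H2A copies: Hist1h2ah at log2 5.04 (SE 0.70), Hist1h2an at 4.84 (SE 0.17) and Hist1h2af at 4.83 (SE 0.16). Hist1h2ah had 0 UMIs in G1-scored cells of 3 libraries, so its fitted value depends on the prior count, and the ends of all 3 recur in other H2A genes. The lowest differences were in Hist1h2bc (-0.05, SE 0.15, edgeR adjusted p = 0.759), Hist2h2be (0.37, SE 0.17, adjusted p = 0.0722) and Hist4h4 (0.64, SE 0.23, adjusted p = 0.0190). Hist1h2bc had 17.3, 18.5, 23.3 and 33.3 CPM in S-scored cells and means of 23.1 in S and 35.3 in G2/M, and its rise in G2/M over G1 was 0.59 (adjusted p = 0.00280). By type, the median S over G1 difference was 3.69 over 14 tested H2A genes, 3.40 over 15 H2B, 3.31 over 5 H1, 3.10 over 11 H3 and 2.36 over 13 H4. All tested genes of H1, H2A, H3 and H4 rose, and 13 of 15 of H2B did.

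**Figure D3:**
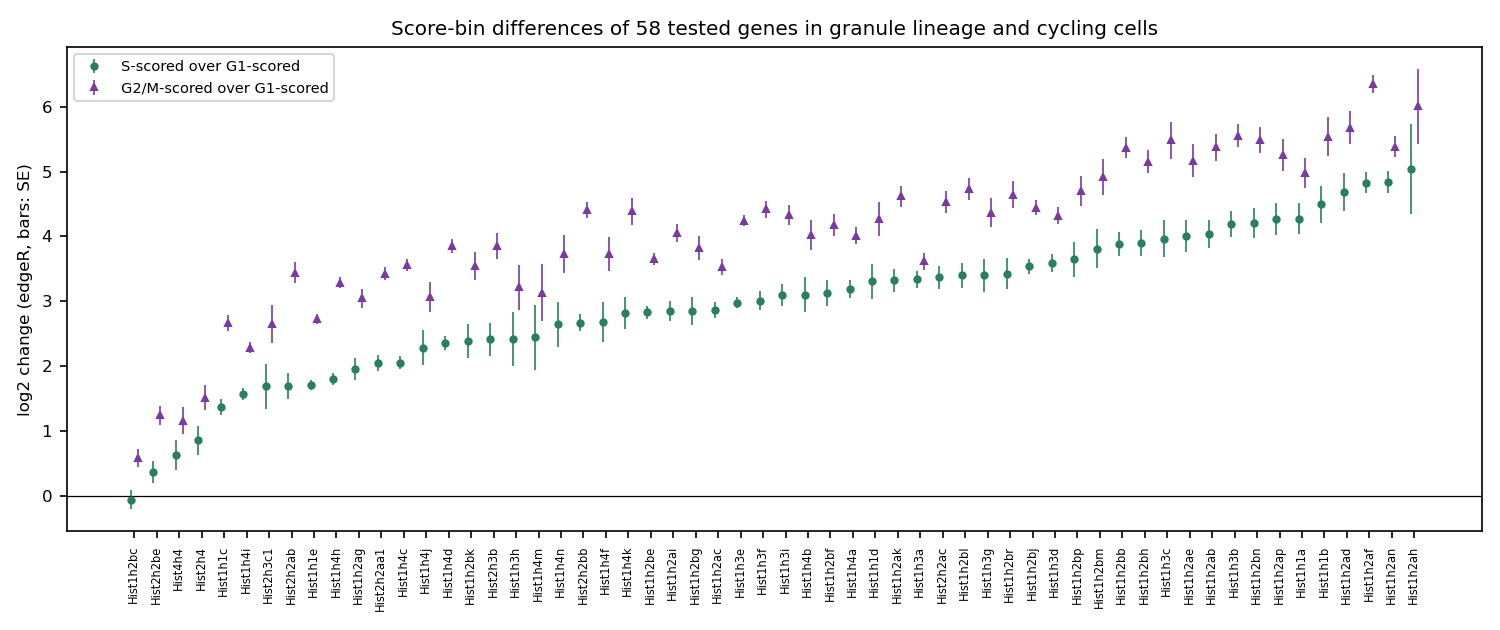
Log2 difference of S-scored (circles) and G2/M-scored (triangles) over G1-scored cells for the 58 tested genes, with SE from edgeR as bars, ordered by the S difference. Hist1h2bc, Hist2h2be and Hist4h4 lie lowest, and the triangle lies above the circle for every gene.

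The G2/M bin holds cells whose S score may also be high, so the cells were also divided by the signs of both scores, a choice made after seeing the data. Summed histone CPM were 542 to 750 in cells with neither score positive, 1195 to 1593 with S only, 11585 to 15150 with both, and 3413 to 4058 with G2/M only. No ranges overlapped. Of 57 genes tested, 46 were higher with S only than with neither (34.2% of 13610 genes), 56 with both than with neither (36.0%), and 55 with G2/M only than with neither (29.4%). With both scores positive 56 were higher than with S only (18.6%), and 53 were higher than with G2/M only (17.8%). Hist1h1b had 68.9, 358, 4308 and 918 CPM on average in cells with neither, S only, both and G2/M only. Both over G2/M only was 2.22 for Hist1h1b (SE 0.21, edgeR adjusted p = 2.13e-05). Hist1h2bc was the 1 gene that was lower, at -0.68 (SE 0.17, adjusted p = 0.00957), and Hist1h2ag, Hist1h3h and Hist2h2be were not called. Cells with both scores positive were also the deepest in each library, with median UMIs of 8880 to 17402 against 2823 to 4422 with G2/M only; the part of depth in these differences was not tested.

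Genes that serve the histone mRNAs were read in the same bins. Of 16 tested genes for histone transcription and 3' end processing, 15 rose in S over G1 (35.3% of all genes did) and 8 were higher (20.2%) and 1 lower (20.5%) in S than in G2/M. Slbp, the stem-loop binding protein, had means of 48.5, 215 and 146 CPM in G1, S and G2/M (S over G1 log2 2.14, SE 0.07, edgeR adjusted p = 2.79e-12). Npat, the coactivator of histone gene transcription, had 17.3, 43.7 and 36.1 CPM (log2 1.33, SE 0.09). Ccne2, which belongs to the list behind the S score, rose by 3.94, Ccne1, the other cyclin E, by 3.12, its kinase partner Cdk2 by 2.93 and Casp8ap2, a component of histone locus bodies, by 1.42. Slbp and Npat were higher in S than in G2/M (log2 0.55 and 0.28, edgeR adjusted p = 1.22e-05 and 0.00963), where 57 histone genes were lower.

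Of 18 histone chaperones 16 rose and 1 fell in S over G1. Asf1b, which carries H3 and H4, rose by 4.01, Tonsl by 3.77, the CAF-1 subunits Chaf1b and Chaf1a by 3.75 and 3.39, and Mcm2, also of the S score list, by 3.30. Atrx fell by 0.12. Of 13 genes listed as replication-independent variants 7 rose (35.3% of all genes did) and 4 fell (34.7%). Those that fell include Hist3h2a and Hist3h2ba. Their symbols have the Hist3h form of a further histone gene cluster, so their place among the variants is uncertain. H2afx rose by 1.75 and H2afz by 1.41, and the centromeric H3 Cenpa rose by 0.52 in S and 4.23 in G2/M. Hist3h2a fell by 2.49, Hist3h2ba by 1.76, H3f3b by 0.43 and H1f0 by 0.43, while H3f3a was at 0.00 (adjusted p = 0.984).

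The fourth question was whether the genes differ between genotypes. In the fit on genotype alone, no histone gene passed the edgeR threshold (adjusted p under 0.05) in any of the 9 classes tested. Beside each count at an unadjusted p under 0.05 stands the share of all genes that passed it in the same direction. In cycling cells 60 genes were tested and 0 called (0.0% of all genes in that class), with unadjusted p under 0.05 for 2 genes, both higher in NdpKO (1.06% of all genes). In endothelial cells it was 0 of 41 (2.54% of all genes), with 0 at the unadjusted threshold, where 7.27% of all genes were higher and 5.69% lower. In erythroid cells it was 0 of 40 (0.0%), with 5 higher at the unadjusted threshold (0.743%). In fibroblasts it was 0 of 52 (0.0128%), with 5 higher (4.59%) and 3 lower (4.26%). In the granule lineage it was 0 of 54 (0.0%), with 1 lower (0.806%), and in macrophages 0 of 41 (0.0322%), with 16 lower (2.61%). In monocytes or dendritic cells it was 0 of 16 (0.0%), with 1 lower (1.73%). In mural cells it was 0 of 30 (0.0644%), with 1 higher (3.74%), and in other neurons 0 of 28 (0.0%), with 1 lower (2.73%). DESeq2 called 2 genes in macrophages, both lower in NdpKO (0.0402% of all genes were), and 0 in the other 8 classes. The difference of S over G1 between genotypes was called for 0 of 58 genes (0.0% of all genes), with 9 at unadjusted p under 0.05, all larger in NdpKO (2.47%). Without NdpWT replicate 1 it was called for 17 genes, all larger in NdpKO, where 3.5% of all genes were. Without NdpWT replicate 2 it was called for 1, smaller in NdpKO (0.0788% of all genes), and without NdpKO replicate 1 or 2 for 0 (0.0% each). The genes for histone mRNA processing, chaperones and variants also gave 0 calls in every class, with 10 at unadjusted p under 0.05 over all classes. Of the chaperones 1 of 18 was lower in endothelial cells (5.69%) and 1 of 17 higher in erythroid cells (0.743%). Of the variants 1 of 13 was higher in fibroblasts (4.59%), 1 of 13 lower in macrophages (2.61%) and 2 of 13 lower in other neurons (2.73%). In monocytes or dendritic cells 2 of 13 variants, 1 of 16 processing genes and 1 of 17 chaperones were lower (1.73%).

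**Figure D4:**
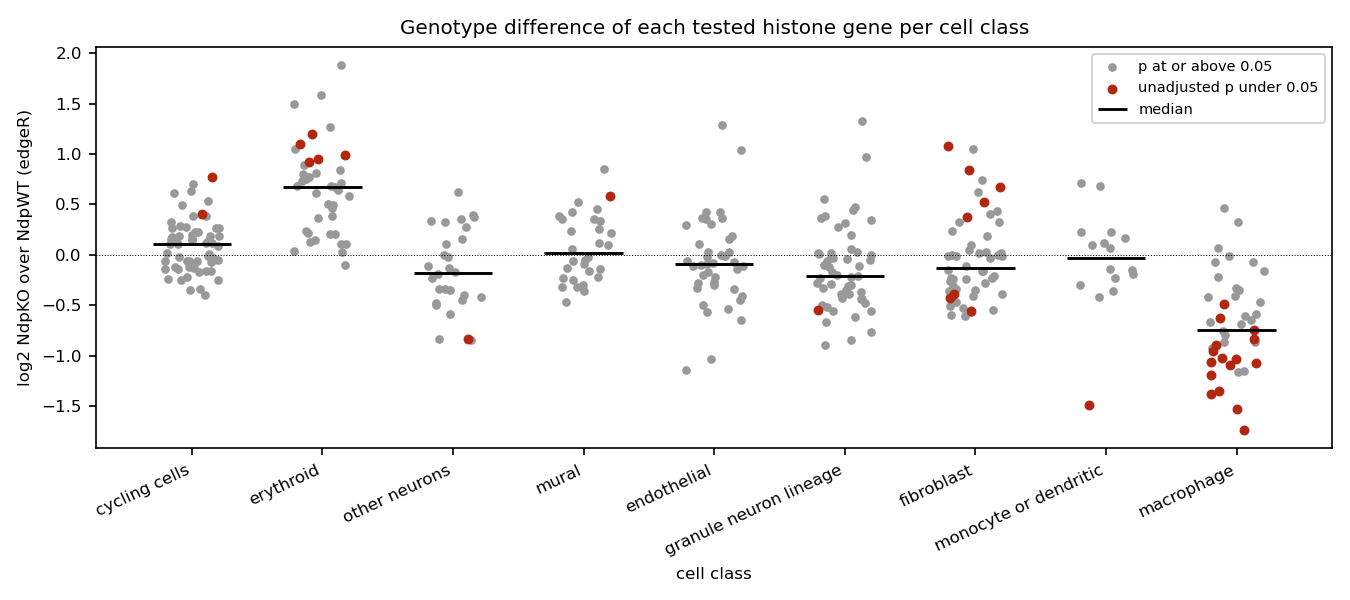
Log2 NdpKO over NdpWT (edgeR) of each tested gene in each class, with bars at the median and red points for an unadjusted p under 0.05. In macrophages 16 of 41 genes are red, all below 0, and in erythroid cells the median is 0.68 (-0.11 without NdpKO replicate 1).

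In cycling cells the median difference over 60 genes was 0.11, and -0.05 without NdpWT replicate 2. Hist1h1b differed by -0.12 and Hist1h4d by 0.14. Hist1h4b had 6.15, 7.90, 14.3 and 9.98 CPM (TMM-scaled), the lowest unadjusted p of the class (0.00932; edgeR adjusted p = 1.00). Hist1h4c, another H4 gene, differed by 0.40 (SE 0.15, unadjusted p = 0.0264).

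In macrophages the median difference was -0.74 over 41 genes, and that of all genes was -0.00. Both knockout libraries lay below both wild-type libraries in 23 of 41 genes (16.9% of all genes did) and above in 2 (17.5%). Hist1h2ab had 14.9, 12.3, 2.85 and 5.73 CPM, a log2 difference of -1.74 (SE 0.31, edgeR adjusted p = 0.105; DESeq2 -1.71, adjusted p = 0.0328). Hist1h1b had 138, 126, 86.1 and 71.0 CPM, a log2 difference of -0.74 (SE 0.14, edgeR adjusted p = 0.121; DESeq2 -0.75, adjusted p = 0.0328). Hist1h1a had 19.8, 13.1, 5.69 and 7.31 CPM (log2 -1.38, SE 0.26, edgeR adjusted p = 0.123). Of the 5 tested H1 genes 4 had an unadjusted p under 0.05, and Hist1h1c, at 0.07, did not. With 1 library left out the calls moved, for all genes too. Without NdpWT replicate 2 edgeR called 11 genes, all lower, where 0.476% of all genes were. Without NdpKO replicate 2 it called 3, all lower (0.0306%), and without NdpWT replicate 1 it called 3 lower (0.684%) and 1 higher (0.983%). Without NdpKO replicate 1 it called 0 (0.00784% in either direction).

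Cell cycle values of the macrophages were read beside this difference. The cycling macrophage cluster held 40, 39, 15 and 17 cells, or 3.56%, 4.48%, 2.47% and 3.13% of the macrophages. Without it the median was -0.54 over 32 genes, with 0 called and 13 lower at unadjusted p under 0.05 (2.38% of all genes). In G1-scored macrophages it was -0.60. The share of macrophages scored as S or G2/M lay between 10.7% and 13.4% in the 4 libraries. In the largest macrophage cluster (2351 cells) the summed histone level was 392, 438, 284 and 333 CPM. In a cluster of 683 macrophages it was 1205, 1616, 1430 and 931 CPM, and the genotypes overlapped. They also overlapped in the cycling macrophage cluster, at 5697, 2562, 2833 and 3252 CPM. The parts of free RNA and of the mix of clusters in the class difference were not tested. The H2A variant gene H2afx differed by -0.43 (unadjusted p = 0.0354).

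The same side was seen for the summed level in several classes. With all cells, both knockout libraries were below both wild-type libraries in 2 of 9 classes, the granule lineage and macrophages, and above in 0. In G1-scored cells it was 7 of 9 and 0, with fibroblasts and other neurons overlapping. Each library supplies all its classes, so these are not separate observations, and with 2 libraries against 2 an exact permutation test cannot go below p = 0.33. In G1-scored endothelial cells 1 of 26 genes was called: Hist1h1e had 93.5, 80.7, 51.5 and 60.4 CPM and fell by 0.64 (SE 0.15, edgeR adjusted p = 0.0410), where 1.68% of all genes fell.

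In fibroblasts the median was -0.13 (0.02 without NdpWT replicate 1), and both knockout libraries lay below both wild-type libraries in 12 of 52 genes (19.7% of all genes did) and above in 8 (20.2%), shares near those of all genes. Hist1h2bc, the copy that fibroblasts held most, had 134, 157, 197 and 220 CPM (log2 0.52, SE 0.13, edgeR adjusted p = 0.279). Hist1h1c had 67.3, 69.4, 85.1 and 92.3 (0.38, SE 0.11, adjusted p = 0.367). Hist1h1b had 114, 101, 73.8 and 89.3 (-0.39, SE 0.13, adjusted p = 0.438). In each of these the groups did not overlap, and none passed the threshold. In erythroid cells the median was 0.68, and the summed level was 2557 CPM in NdpKO replicate 1 and 1200 to 1847 in the others. Without that library the median was -0.11, and in G1-scored erythroid cells it was -0.48 over 10 tested genes.

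Some copies differed more between libraries of a genotype than between genotypes. In cycling cells 5 of 59 genes above 1 CPM were at least 2-fold higher in both libraries numbered 1 than in both numbered 2, and 0 the other way (8.47% against 0.436% of 12839 genes either way). Hist1h2an had 86.0, 7.54, 115 and 11.3 CPM. Hist1h2af had 78.0, 20.1, 119 and 25.8 CPM, and Hist1h2ag 23.9, 5.27, 40.1 and 8.60. The other two were Hist1h2bk, at 11.1, 2.79, 13.7 and 3.58, and Hist1h2ao, at 1.19, 0.422, 2.11 and 0.525. Hist1h3c had 576, 267, 1002 and 303 CPM. In contrast Hist1h2ap, at 770, 673, 207 and 903 CPM, and Hist1h2ae, at 799, 671, 407 and 774, were low in NdpKO replicate 1 only. Of these genes Hist1h2an, Hist1h2af and Hist1h2ap share most of their 3' ends with other H2A copies (83.9%, 66.5% and 100% of windows). This pattern was noticed in the data and has no test.

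**Figure D5:**
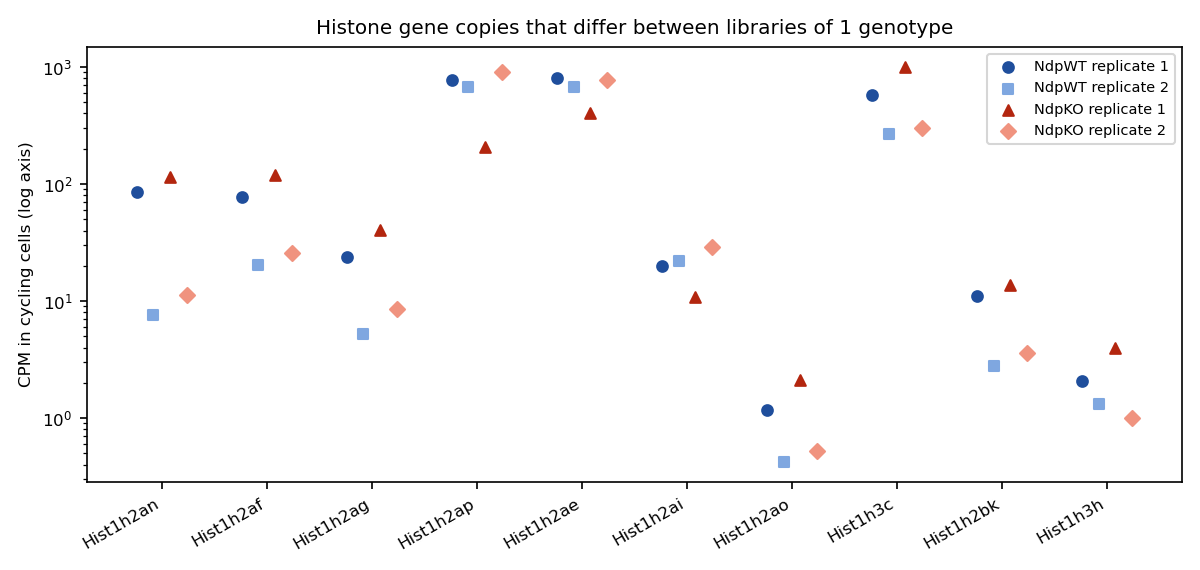
CPM in cycling cells (log axis) of 10 copies chosen after their values were seen, 1 marker per library. Hist1h2an is at 86.0 and 115 in the libraries numbered 1 and at 7.54 and 11.3 in those numbered 2.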

How the data were processed

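The authors deposited raw UMI counts per gene and barcode, 1 matrix per library, made with Cell Ranger 6.1.2 and mm10, per the submitters' processing notes; the labels do not mention any removal of doublets or ambient RNA. The members, lists and tests were chosen with earlier results of these data known. Barcodes with at least 500 genes, 1000 UMIs and at most 10% mitochondrial UMIs were kept, and Scrublet calls (1.53% to 2.29%, against 10.3% to 15.3% expected) were removed, so doublets remain; the expected rate and the cluster naming rule were set after a first look at the data. Cells were clustered without these genes (scanpy 1.11.5, 2000 variable genes, 30 components, 20 neighbours, Leiden resolution 1), and a cluster was named by at least 3 markers among its first 50 genes, so class names are rebuilt and may differ from the authors'. UMIs were summed per library and class (9 classes, each of 50 cells or more in all 4 libraries) and tested with edgeR 4.0.16 (quasi-likelihood, TMM, filterByExpr minimum 10) in R 4.3.3, Benjamini-Hochberg adjusted over all genes of the class, threshold 0.05. DESeq2 1.42.0, other size factors, no filter, stricter cells, thinned phase bins, a replicate block and left-out libraries were alternatives; G1-scored cells alone, bins by both score signs and macrophages without their cycling cluster were chosen after seeing the data. The tests were checked on simulated data. CPM of classes use plain totals, and CPM beside a test use TMM. Named genes were the 12 of highest mean level, those called, the 3 highest and lowest in S over G1 and in class specificity, and for the lists Slbp, Npat and up to 4 of lowest p per contrast; others named were chosen after seeing their values.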

Additional observations from a re-analysis of the deposited data

Results flagged for a closer look

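Hist1h2bc and Hist1h2ab lay on opposite sides in different classes, with both knockout libraries above both wild-type libraries in some and below in others; the difference between classes was not tested. For Hist1h2bc the log2 NdpKO over NdpWT was 0.52 in fibroblasts, 0.32 in macrophages, 0.58 in mural cells and 0.63 in other neurons, and -0.23 in monocytes or dendritic cells. For Hist1h2ab it was 0.95 in erythroid cells and 0.46 in mural cells, and -1.74 in macrophages. In monocytes or dendritic cells Hist1h2bc had 28.3, 31.6, 28.1 and 24.6 CPM, from 23, 36, 45 and 60 UMIs, which is nearly level. Its value in other neurons rests on 26, 6, 29 and 21 UMIs. Of all genes, 16.9% in macrophages and 19.7% in fibroblasts had both knockout libraries below both wild-type libraries. Above them were 17.5% and 20.2%, and these shares were not taken in the other classes. Every class is drawn from the same 4 libraries.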

How the results depend on the processing

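The counts of histone genes higher in S over G1 (55 to 58), higher in G2/M over G1 (58 to 60) and lower in S than in G2/M (51 to 58) stayed within 1.5 times of the main counts under DESeq2, other size factors, no filter, a stricter cell filter, thinned phase bins and each left-out library, and 61 genes were captured under every alternative. The genotype counts of 0 did move: DESeq2 called 2 genes in macrophages, no filter on low counts 8 lower in macrophages (0.181% of all genes in that direction), 2 higher in fibroblasts (0.785%), 1 lower in the granule lineage (0.137%) and 8 larger in NdpKO for the genotype difference in S over G1 (0.103%), and G1-scored cells 1 in endothelial cells. With a library left out, where a lone library is assumed to vary like the other group, calls ranged from 0 to 4 in endothelial cells, 0 to 2 in erythroid cells, 0 to 1 in fibroblasts, 0 to 11 in macrophages (11 without NdpWT replicate 2), 0 to 2 in monocytes or dendritic cells, 0 to 3 in mural cells, 0 to 2 in other neurons and 0 to 17 for the genotype difference in S over G1 (17 without NdpWT replicate 1). Genes other than histone genes were called in each of these classes too when a library was left out. A lone library gives no spread of its own, so these ranges cannot decide whether histone genes differ between genotypes.

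The labels match runs by litter but do not say that a replicate number marks the match, and same-numbered libraries correlated from 0.017 in erythroid to 0.371 in fibroblast sums. With the replicate number as a block, more of all genes were called as well: 3 histone genes in cycling cells, all higher (0.423% of all genes in that direction), 1 higher in endothelial cells (3.18%), 7 in fibroblasts, 4 higher (3.26%) and 3 lower (3.2%), and 12 in macrophages, all lower (0.94%). In macrophages 1 was lower with the block and without the cycling macrophage cluster (0.0977%), and in the other 5 classes 0 were called (0.0% to 0.705% of all genes in either direction).

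Mean summed levels in G1-scored cells were 1150 CPM in cycling cells, 415 in endothelial cells, 260 in erythroid cells, 485 in fibroblasts, 623 in the granule lineage, 363 in macrophages, 254 in monocytes or dendritic cells, 449 in mural cells and 484 in other neurons; the stricter cell filter moved erythroid cells from 1750 to 3349 CPM. Signs turned in cycling cells, where Hist1h4d was -0.13 in G1-scored cells. Not all were near 0 in the main fit, with Hist1h3c at 0.61 and Hist1h2ap at -0.40. With a library left out the log2 difference ranged from -0.32 to 0.11 for Hist1h1b, -0.36 to 0.067 for Hist1h1e and -0.11 to 0.45 for Hist1h4d. It was -0.86 to 0.050 for Hist1h2ae, -1.81 to 0.30 for Hist1h2ap and -0.51 to 1.31 for Hist1h3c. Ranges were -0.081 to 0.40 for Hist1h2bc, -0.089 to 0.34 for Hist1h1c and -0.29 to 0.58 for Hist2h2ac. For Hist1h4h it was -0.60 to 0.17, for Hist1h1a -0.64 to 0.02 and for Hist1h2ab -0.076 to 0.34. In macrophages that of Hist1h3c ranged from -0.98 to 0.28. Hist1h2bc in S over G1 was 0.0080 in thinned bins and ranged from -0.14 to 0.12 with a library left out. Depth limits the copies at a few UMIs per class, and the cause of these changes was not tested.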
